A study of Mus musculus with 4 samples.

Results

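The citric acid cycle oxidises acetyl groups in mitochondria, and Acod1 (also named Irg1) draws on it: this enzyme decarboxylates cis-aconitate, an intermediate between citrate and isocitrate, to itaconate. Itaconate is known from macrophages as an antibacterial metabolite and as an inhibitor of succinate dehydrogenase, a later enzyme of the same cycle. Described here are Acod1 and 8 genes of cycle enzymes (Cs, Idh1, Idh2, Idh3a, Ogdh, Suclg1, Fh1 and Mdh2), 9 of 24148 genes in the count table. They were chosen by name, with earlier results of these data known. RNA came from primary microglia of the mouse, the brain's own macrophages, which had been shaken off mixed cultures of glia. The cells were given lipopolysaccharide (LPS), a glycolipid of Gram-negative bacteria, at 10 ng/ml for 4 h (2 libraries), or were labelled control, with no vehicle named (2 libraries). No genetic change is named in either group, and strain, age and sex were not given in the labels used here.

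The libraries held 5095630 and 4592474 counts for LPS and 3617176 and 4080568 counts for control (replicates 1 and 2 of each). The labels do not say whether replicates were separate cultures, so each p-value reflects the spread of these libraries alone, which may be technical. Levels are in CPM, counts scaled to a common library total, here with TMM factors, which correct for differences in library composition. Of the 8 microglia marker genes examined, 6 passed the count minimum described below, among them Csf1r, and Itgam, which has 2 accessions, had no count in any library. The 8 markers summed to 1339 and 1060 CPM in LPS and 2095 and 1468 CPM in control. EdgeR, DESeq2 and limma-trend each called 0 of the 6 tested (3 with an unadjusted p under 0.05 by edgeR). Limma-trend was run here and below on log2(count + 1) without scaling for library size. Their part in the results below was not tested. In bulk RNA, fewer cells of a type and less RNA per cell cannot be told apart.

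Acod1 rose 595-fold with LPS. EdgeR's quasi-likelihood test, fitted without the replicate number, called none of the 6 cycle enzymes among the members that it could be run on. Acod1 (chr14:103047012-103056573, plus strand, build GRCm38) stood at 11950 and 9515 CPM in the LPS libraries, against 22.5 and 13.8 CPM in the control libraries. The groups lay far apart, and the replicates differed by less than a factor of 2 within each group. The means were 10732 ± 1722 CPM in LPS and 18.1 ± 6.19 CPM in control (SD, n = 2 each; log2 fold change 9.22 ± 0.40 SE; 95% interval 8.21 to 10.22; adjusted p = 0.00037 by edgeR). Acod1 took 0.975% (95% Clopper-Pearson interval 0.966% to 0.984%) and 0.857% (0.849% to 0.866%) of all counts in LPS replicates 1 and 2. In control replicates 1 and 2 the shares were 0.00235% (0.00188% to 0.00291%) and 0.00174% (0.00136% to 0.00219%), and these intervals cover counting error only.

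The sequence before the start of Acod1 is shown beside those of Cs and Mdh2, the first and last enzymes of the cycle, so that the window of the gene that rose can be read against windows of genes without a call. Each line holds the 250 bases upstream of the RefSeq start (GRCm38.p6, plus strand, 5′ to 3′), at chr14:103046762-103047011 for Acod1, chr10:128337477-128337726 for Cs and chr5:135778399-135778648 for Mdh2. Capitals mark matches, on either strand, to the letters TATAAA (a core promoter element), AAGTGAAA (found in elements bound by interferon regulatory factors), GGAANTTCC (resembling sites of NF-kB Rel proteins) and GGGCGG (bound by Sp1). The letters were picked after the Acod1 sequence had been seen.
Acod1: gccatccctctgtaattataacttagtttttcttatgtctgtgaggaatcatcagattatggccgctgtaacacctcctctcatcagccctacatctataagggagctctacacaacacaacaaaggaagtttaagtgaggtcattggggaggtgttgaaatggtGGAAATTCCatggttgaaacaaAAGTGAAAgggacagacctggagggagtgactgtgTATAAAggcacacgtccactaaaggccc
Cs: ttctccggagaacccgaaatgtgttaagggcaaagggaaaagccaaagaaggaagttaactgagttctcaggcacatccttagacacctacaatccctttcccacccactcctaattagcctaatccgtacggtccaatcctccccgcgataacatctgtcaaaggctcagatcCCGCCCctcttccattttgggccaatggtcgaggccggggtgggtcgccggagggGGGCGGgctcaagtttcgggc
Mdh2: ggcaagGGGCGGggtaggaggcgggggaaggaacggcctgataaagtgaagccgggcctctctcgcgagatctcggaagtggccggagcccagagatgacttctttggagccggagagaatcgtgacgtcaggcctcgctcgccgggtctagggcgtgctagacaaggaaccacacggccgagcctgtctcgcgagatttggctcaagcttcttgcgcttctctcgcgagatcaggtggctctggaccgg

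The Acod1 window held TATAAA at -28 to -23, AAGTGAAA at -63 to -56 and GGAANTTCC at -85 to -77, counted back from the start. No 2 of these matches overlapped. Among 32851 windows of the same length, 12.4% held TATAAA, 1.36% held AAGTGAAA and 0.813% held GGAANTTCC. Of the 13 windows of other members in the reference table, 0 held any of these 3 and 8 held GGGCGG. That motif was in 32.7% of all windows and not in that of Acod1. Ogdh and Idh1 have more than 1 window each, and every window was counted, so the 13 are not 13 genes. Of the other members with a window, only Suclg1 had none with GGGCGG. The Acod1 window had 2 CpG dinucleotides, against 9 to 35 in the 13 windows of cycle enzymes and a median of 6 over all windows. Of all windows, 29.0% had as few or fewer. A match describes the letters alone and says nothing of binding.

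**Figure D1:**
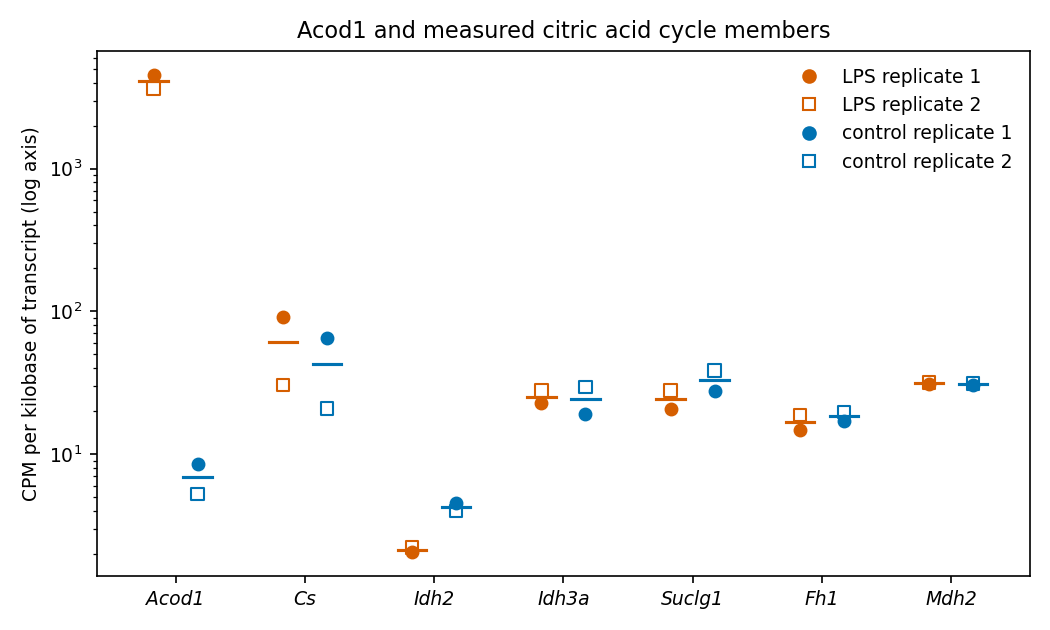
Level of each measured member by library, in CPM per kilobase of transcript on a log axis; horizontal bars are the means of 2 libraries. Acod1 lies at 4556 and 3627 in LPS and 8.58 and 5.24 in control. The groups do not overlap in Acod1, Idh2 and Mdh2, the last by a narrow margin, as in 50.6% of all tested genes.

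Divided by transcript length, Acod1 lay above all 6 cycle enzymes measured among the members in LPS cells and below 5 of the 6 in control cells. The 16 cycle genes beyond the members were not part of this comparison. In LPS replicates 1 and 2 Acod1 stood at 4556 and 3627 CPM per kilobase. The 6 enzymes added together came to 183 and 139 CPM per kilobase, so Acod1 was 24.9 and 26.1 times their sum. In control replicates 1 and 2 it stood at 8.58 and 5.24 CPM per kilobase, and the enzymes' sum of 164 and 144 was 19.1 and 27.4 times the Acod1 level. Among 8825 tested genes with 1 accession and a known length, Acod1 ranked 14 and 15 in LPS and 3608 and 4693 in control.

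Mean levels in LPS, in CPM per kilobase (SD, n = 2), were 4092 ± 657 for Acod1, 61.2 ± 43.3 for Cs, 31.5 ± 0.337 for Mdh2, 25.3 ± 3.63 for Idh3a, 24.4 ± 5.13 for Suclg1, 16.7 ± 2.90 for Fh1 and 2.14 ± 0.105 for Idh2. Of these neighbours, Cs and Mdh2 overlapped between libraries, as did Idh3a and Suclg1. In control they were 43.0 ± 31.4 for Cs, 33.0 ± 7.76 for Suclg1, 30.8 ± 0.538 for Mdh2, 24.3 ± 7.52 for Idh3a, 18.4 ± 1.90 for Fh1, 6.91 ± 2.36 for Acod1 and 4.28 ± 0.393 for Idh2. There Cs overlapped Suclg1, Suclg1 overlapped Mdh2 and Idh3a overlapped Fh1. In both groups Idh2 was last and apart from its neighbour. The fit took in the 9548 genes whose mean count reached 10, and a call means an adjusted p under 0.05 over all of them.

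By that test 1 of 7 tested members was called, Acod1, which was higher. Over all genes 8.34% were called, 6.55% higher and 1.79% lower, so 0 calls among the other 6 is near the background. Of those 6 genes, 1 had an unadjusted p under 0.05 by edgeR. Over all genes DESeq2 called 741 higher and 227 lower, and limma-trend on counts not scaled for library size called 574 and 205. Both called 0 of these 6. The median log2 fold change of these 6 was -0.05, the same as that of all genes tested (-0.05). Without LPS replicate 1 the calls over all genes were 335 higher and 33 lower, against 625 and 171 with all libraries. They were 435 and 39 without LPS replicate 2, and 260 genes were lower without control replicate 2. The split also moved with the scaling, to 469 higher and 489 lower under total-count scaling, 537 and 320 with upper-quartile factors and 524 and 322 after quantile normalization. In a simulation of this comparison over 9548 genes, with 50 altered at each size, edgeR found 10% of those altered by a log2 of 1 and 74% at a log2 of 2. A missing call alone therefore does not exclude a change by a log2 of 1. The 95% intervals of the edgeR fit differed by gene. Those of Mdh2 (-0.48 to 0.54), Fh1 (-0.73 to 0.45) and Idh3a (-0.66 to 0.77) did not reach a log2 of 1 in either direction. Those of Cs (-1.21 to 2.24), Suclg1 (-1.14 to 0.26) and Idh2 (-1.89 to -0.09) did, and only that of Cs reached a log2 of 2.

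**Figure D2:**
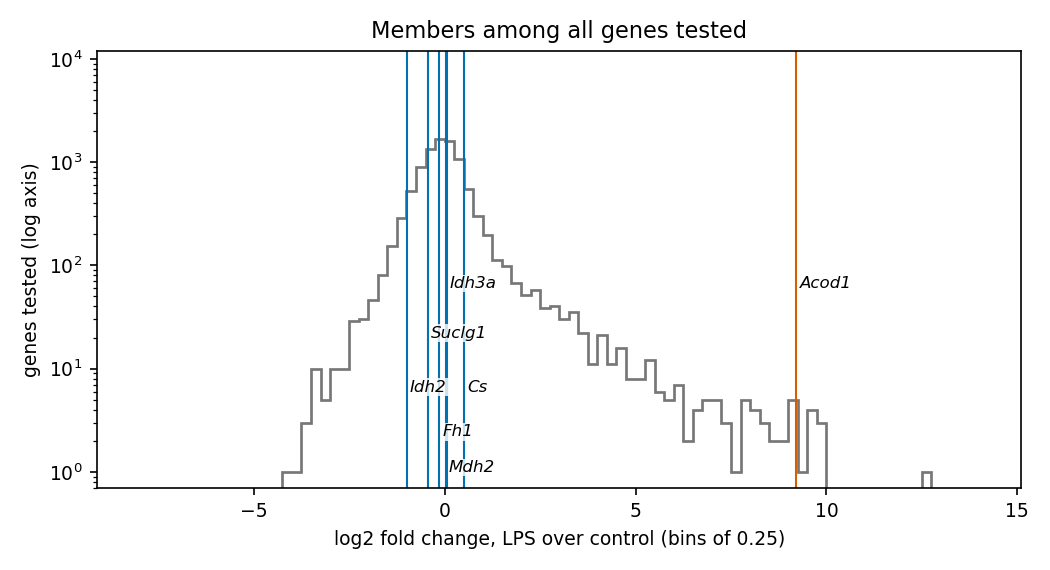
Number of tested genes per log2 fold change bin of 0.25 (grey line, log axis), LPS over control, with vertical lines at the 7 tested members. Acod1 at 9.22 lies in the far right tail, and the 6 cycle enzymes lie between -0.99 and 0.51.

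Cs encodes citrate synthase, which joins acetyl-CoA and oxaloacetate (chr10:128337727-128362482, plus strand). It stood at 269 and 89.4 CPM in LPS replicates 1 and 2, against 191 and 60.8 CPM in control replicates 1 and 2. The groups overlapped, and both libraries numbered 1 were high and both numbered 2 low, by 3.00 times in LPS and 3.13 times in control. Fitted without the replicate number, the log2 fold change was 0.51 ± 0.69 (95% interval -1.21 to 2.24, edgeR adjusted p = 0.77). Within the libraries numbered 1 and 2 the log2 ratios were 0.49 and 0.56. A fit that used the number called Cs higher, on a pairing that the labels do not state. That fit called 1676 of 9548 genes higher and 1258 lower, and is described at the end. Of all 9548 genes, 64 (0.670%) were at least 3 times higher in the library numbered 1 in both groups, and 141 (1.48%) in the library numbered 2. The cut-off of 3 lies just below the ratios of Cs itself, so these shares do not measure how rare its pattern is. The log2 fold change of Cs was -0.49 and 1.10 without LPS replicates 1 and 2, and 1.53 and -0.13 without control replicates 1 and 2.

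Cell type markers also differed by library number, those of microglia included. Of the 6 tested microglia genes, 4 were higher in the library numbered 1 of both groups, among them Cx3cr1, a chemokine receptor, at 140 and 51.0 CPM in LPS and 330 and 54.4 CPM in control. All 4 tested fibroblast genes were higher in the library numbered 2 of both groups, and the 5 of that list summed to 39.2 and 64.8 CPM in LPS and 26.0 and 41.7 CPM in control. The 7 oligodendrocyte lineage genes summed to 317 and 23.9 CPM in LPS replicates 1 and 2 and to 316 and 36.6 CPM in control replicates 1 and 2. Of these, 5 passed the count minimum, and all 5 were higher in the library numbered 1 of both groups. The 6 astrocyte genes summed to 82.3 and 429 CPM in LPS and 68.1 and 296 CPM in control, with all 5 tested genes higher in the library numbered 2 of both groups and none at 0 throughout. The summed oligodendrocyte and astrocyte levels overlapped between LPS and control, and 0 of their 10 tested markers was called by edgeR, DESeq2 or limma-trend (0 with an unadjusted p under 0.05). The part of these cells in the level of Cs was not tested.

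**Figure D3:**
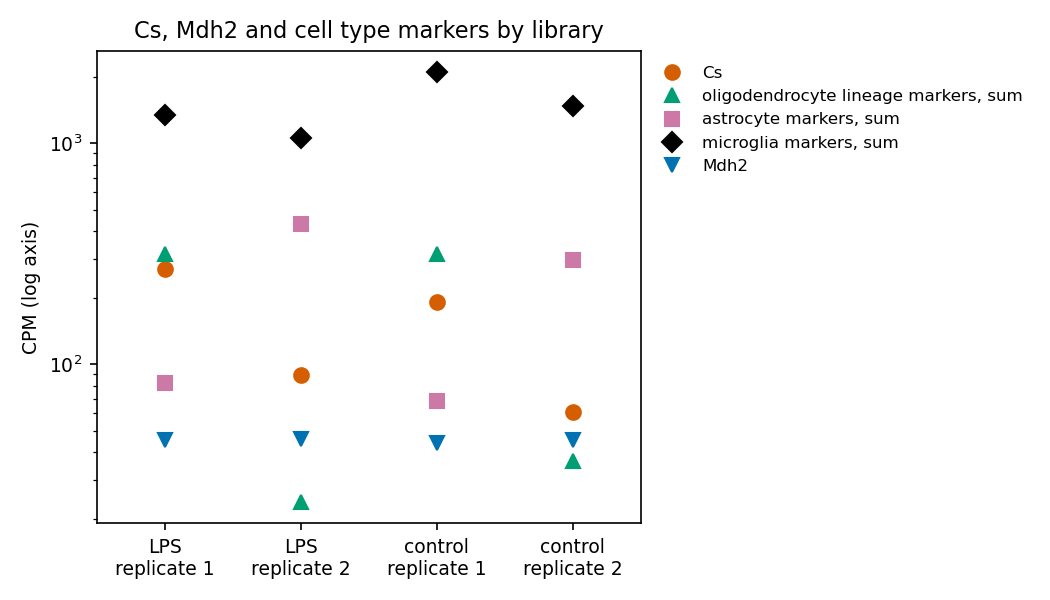
Level in CPM (log axis) of Cs, of Mdh2 and of 3 summed lists of cell type markers in each of the 4 libraries. Cs and the oligodendrocyte markers are high in both libraries numbered 1, astrocyte markers in both numbered 2, and Mdh2 lies between 44.2 and 46.2 CPM throughout.

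The isocitrate dehydrogenases convert isocitrate to 2-oxoglutarate: Idh3, built from 3 kinds of subunit, uses NAD in mitochondria, Idh2 uses NADP in mitochondria and Idh1 uses NADP in the cytosol. Idh2 (chr7:80094845-80118608, minus strand) stood at 3.61 and 3.87 CPM in LPS (15 and 16 counts), against 7.95 and 6.98 CPM in control (30 and 36 counts). Both LPS libraries lay below both controls, which was so, in one or the other direction, for 50.6% of all tested genes. Its log2 fold change was -0.99 ± 0.36 (95% interval -1.89 to -0.09), which missed the threshold (unadjusted p = 0.037, edgeR adjusted p = 0.20). It had the fewest counts of the tested members.

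Idh3a, the catalytic subunit (chr9:54586511-54604662, plus strand), stood at 54.6 and 66.9 CPM in LPS, against 45.6 and 71.1 CPM in control. The LPS values lay between the 2 controls (log2 fold change 0.06 ± 0.29; 95% interval -0.66 to 0.77; edgeR adjusted p = 0.95). The other subunit genes of this enzyme and further cycle genes named outside the naming rule below were chosen by their place in the cycle after their values had been seen. Idh3g stood at 50.5 and 53.6 CPM in LPS and 69.9 and 76.0 CPM in control, with a log2 fold change of -0.49 ± 0.20 (edgeR adjusted p = 0.25), and Idh3b had a log2 fold change of -0.21 ± 0.21 (edgeR adjusted p = 0.66). Neither was called.

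Idh1 and Ogdh could not be tested. Idh1 (chr1:65158616-65186479, minus strand) had 0 and 9 counts in LPS and 1 and 2 counts in control over 2 accessions. Its ratio from summed counts was 3.23 in LPS over control with a 95% counting interval of 0.807 to 18.6, and all LPS counts came from replicate 2. Ogdh, the first subunit of the 2-oxoglutarate dehydrogenase complex (chr11:6291597-6359094, plus strand), had 1 and 0 counts in LPS and 1 and 3 counts in control, all from 1 of its 5 accessions (ratio 0.269, interval 0.00547 to 2.72). These counts are too few to show a difference in either gene.

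Both are genes with more than 1 accession in the table, while the 7 tested members have 1 each. Over all named genes, 46.8% of 19106 genes with 1 accession reached the mean count of 10, against 11.7% of 4801 genes with more. Whether reads shared between accessions were left uncounted was not tested, so the low counts of Idh1 and Ogdh do not measure how strongly these genes were expressed.

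The other subunit genes of the 2-oxoglutarate dehydrogenase complex were measured. Dlst, its succinyltransferase, stood at 68.3 and 65.2 CPM in LPS and 55.1 and 53.5 CPM in control (log2 fold change 0.30 ± 0.20; edgeR adjusted p = 0.48). Dld, the lipoamide dehydrogenase it shares with the pyruvate dehydrogenase complex, stood at 63.5 and 67.7 CPM in LPS and 42.6 and 50.8 CPM in control (0.49 ± 0.21; 0.28). Neither was called. The groups of both genes did not overlap, which was so for 50.6% of all tested genes.

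Suclg1 encodes the alpha subunit of succinyl-CoA synthetase, the enzyme that forms succinate (chr6:73248505-73276907, plus strand). It stood at 31.5 and 42.5 CPM in LPS, against 41.8 and 58.5 CPM in control. The higher LPS library just exceeded the lower control library, and the log2 fold change was -0.44 ± 0.28 (95% interval -1.14 to 0.26; edgeR adjusted p = 0.46). The beta subunits, which decide whether GTP or ATP is formed, had values of -0.60 ± 0.28 for Suclg2 (GTP; adjusted p = 0.31) and 0.12 ± 0.23 for Sucla2 (ATP; 0.84), and neither was called by edgeR.

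Fh1 encodes fumarase, which hydrates fumarate to malate (chr1:175601378-175625635, minus strand). It stood at 38.7 and 49.5 CPM in LPS, against 45.0 and 52.1 CPM in control, with overlapping groups (log2 fold change -0.14 ± 0.24; 95% interval -0.73 to 0.45; edgeR adjusted p = 0.82). Mdh2, the mitochondrial malate dehydrogenase that renews oxaloacetate (chr5:135778649-135790386, plus strand), stood at 45.5 and 46.2 CPM in LPS, against 44.2 and 45.3 CPM in control. Both LPS values lay just above both control values, with a log2 fold change of 0.03 ± 0.20 (95% interval -0.48 to 0.54; edgeR adjusted p = 0.96). The sign for Mdh2 and for Idh3a depended on the scaling, with -0.40 for both genes under total-count scaling, which moved the median of all genes by -0.44.

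**Figure D4:**
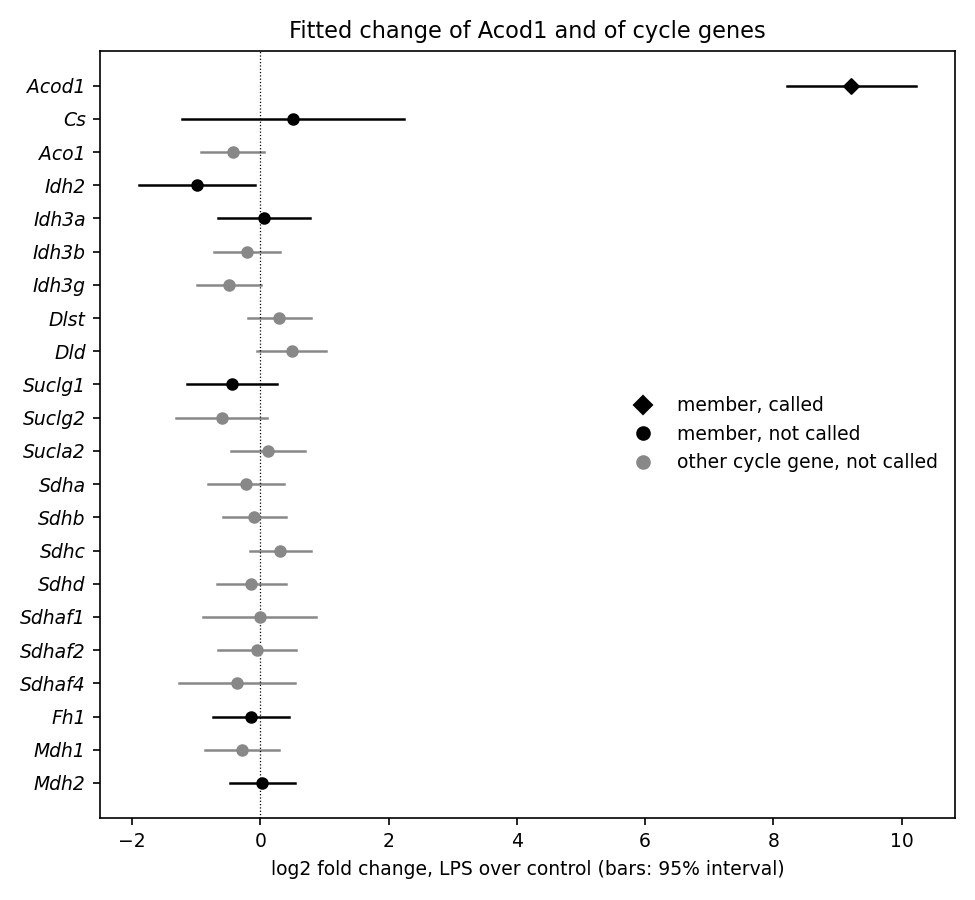
Log2 fold change of LPS over control for Acod1 and 21 of the 22 tested cycle genes, in the order of the cycle, with 95% intervals from the edgeR fit. Acod1 at 9.22 stands alone; the cycle genes lie between -0.99 and 0.51, and Idh2 is the one whose interval of -1.89 to -0.09 leaves out 0.

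Among 16 cycle genes beyond the members, all tested, 0 were called in either direction by edgeR, beside 8.34% of all genes. DESeq2 and limma-trend also called 0 of the 16, and 0 had an unadjusted p under 0.05 by edgeR. Their log2 fold changes ran from -0.60 to 0.49 with a median of -0.12, beside -0.05 over all genes. In 8 of the 16 genes the groups did not overlap, close to the 50.6% of all genes. Among the most highly counted were Mdh1, the cytosolic malate dehydrogenase (-0.29 ± 0.23; edgeR adjusted p = 0.58) and Sdha, the flavoprotein of succinate dehydrogenase (-0.22 ± 0.24; edgeR adjusted p = 0.69). Sdha stood at 91.9 and 122 CPM in LPS and 113 and 136 CPM in control, with overlapping groups.

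Genes that feed pyruvate into the cycle gave 0 edgeR calls among 12 tested of 14, beside the 8.34% of all genes (median -0.17). Of these 12, 1 had an unadjusted p under 0.05 by edgeR, and DESeq2 and limma-trend called 0. Pdhb and Pdha1, subunits of the first enzyme of the pyruvate dehydrogenase complex, had log2 fold changes of -0.09 ± 0.22 and -0.42 ± 0.29, and Mpc1, of the mitochondrial pyruvate carrier, 0.24 ± 0.24 (edgeR adjusted p = 0.87, 0.49 and 0.66). Pdpr, a regulatory subunit of pyruvate dehydrogenase phosphatase, was picked with its values known, as the gene of this list nearest to a call. It stood at 6.25 and 7.49 CPM in LPS and 20.7 and 15.1 CPM in control (-1.37 ± 0.32; edgeR adjusted p = 0.066). Pdpr was called lower under total-count scaling (-1.78, adjusted p = 0.024), with upper-quartile factors (-1.59, 0.040) and at a minimum mean count of 50 (-1.47, 0.038), in a range of 0.024 to 0.35 without the replicate number. Genes of citrate export and use gave 0 edgeR calls among 6 tested of 8, beside the same 8.34% (median -0.23). Of these 6, 0 had an unadjusted p under 0.05 by edgeR, and DESeq2 and limma-trend called 0. Fasn, the fatty acid synthase, Slc25a1, the mitochondrial citrate carrier, and Me2, a mitochondrial malic enzyme, had -0.33 ± 0.42, 0.12 ± 0.27 and -0.26 ± 0.22 (edgeR adjusted p = 0.75, 0.87 and 0.60).

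Among genes of the aspartate, malate and glutamine shuttles, 1 of 10 tested of 12 was called, beside the 8.34% of all genes (median -0.13). Slc25a12, a mitochondrial carrier that exchanges aspartate for glutamate, rose to 45.0 and 40.6 CPM in LPS, against 19.6 and 19.0 CPM in control, a log2 fold change of 1.15 ± 0.23 (edgeR adjusted p = 0.038). That call was lost when any 1 library was left out (1.16 and 1.10 without control replicates 1 and 2, adjusted p = 0.11 in both; 1.07 and 1.22 without LPS replicates 1 and 2, adjusted p = 0.27 and 0.15). It was also lost under total-count scaling (0.71, adjusted p = 0.15), upper-quartile factors (0.92, 0.070), quantile normalization (1.00, 0.057) and limma-trend (1.05, 0.14). Over all settings that did not use the replicate number its adjusted p ran from 0.020 to 0.27. Glud1, the glutamate dehydrogenase that forms 2-oxoglutarate, had -0.04 ± 0.20, and Slc25a11, the carrier of 2-oxoglutarate and malate, -0.35 ± 0.24 (edgeR adjusted p = 0.95 and 0.49).

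Got1, the cytosolic aspartate transaminase of the same shuttle, was picked with its values known, as the lowest log2 fold change in these lists. It stood at 12.5 and 7.25 CPM in LPS and 38.9 and 18.4 CPM in control (-1.53 ± 0.48; edgeR adjusted p = 0.14). Got1 was called lower under total-count scaling (-1.93, adjusted p = 0.033), by limma-trend (-1.56, 0.044) and without control replicate 2 (-2.01, 0.015). Without control replicate 1 its log2 fold change was -0.91 (0.37), and over all settings that left the replicate number out its adjusted p ran from 0.015 to 0.42. Clybl, an enzyme of the breakdown of itaconate, had 1.44 and 1.69 CPM in LPS and 1.06 and 6.01 CPM in control, with overlapping groups (-1.21 ± 0.84; edgeR adjusted p = 0.50).

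The 5 tested genes whose pattern over the 4 libraries was most like that of Acod1, by the distance between log2(CPM + 1) values centred on the control mean, were Ifit1, Il1a, Ccl5, Gbp5 and Cmpk2, at distances of 0.192, 0.335, 0.394, 0.427 and 0.508. Ifit1, which binds foreign RNA, stood at 2343 and 1917 CPM in LPS and 4.24 and 1.74 CPM in control, and Il1a, which encodes the cytokine interleukin-1 alpha, at 4490 and 4858 CPM in LPS and 8.48 and 5.43 CPM in control. This distance depends largely on the size of the increase, and the 5 had log2 fold changes from 9.40 (Il1a) to 9.78 (Gbp5). The tested cycle genes lay between -0.99 and 0.51, so none of them could have been near Acod1. The likeness describes these 4 libraries only.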

How the data were processed

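The counts were deposited as 1 table of 32915 RefSeq accessions and 4 columns. Its name calls it normalized, but the values are whole numbers whose totals differ between libraries, and they were treated as counts. HTSeq 0.6.1, TopHat2 2.0.10, Trimmomatic 0.33, Cufflinks 2.2.1, CASAVA 1.8.2 and the build mm10 were used, per the submitters' processing notes. Annotation, counting mode and strand setting were not given in the sources used here, so reads of overlapping genes cannot be told apart. Libraries were directional and ribosomal RNA was removed, per the labels' protocols.

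Accessions were matched to symbols with a RefSeq table (GRCm38.p6, 32487) and GENCODE metadata (187), and 241 stayed unnamed. Unnamed accessions, mostly 1 non-coding RNA, held 20.1% to 24.9% of counts. Counts were summed per symbol. Genes whose mean count reached 10 were tested with edgeR 4.0.16 (quasi-likelihood, two-sided, TMM, all 4 libraries, no covariate, R 4.3.3), with Benjamini-Hochberg adjustment over 9548 genes. TMM factors were 0.820 and 0.906 for LPS and 1.05 and 1.28 for control. Alternatives used limma 3.58.1 and DESeq2 1.42.0. Except after quantile normalization, limma-trend was run on log2(count + 1) without scaling for library size, so differences in depth stayed in its values. Replicates differed beyond sampling noise (22.6 in LPS and 26.9 in control, as chi-square over its degrees of freedom). Lengths are those of the matched GENCODE transcripts, and sequences come from RefSeq (GRCm38.p6), which held windows for 8 of 9 members.

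Named were all members and, from the other lists, every called gene and the 3 with the highest mean count, of which some are not reported here. Members and lists were chosen with earlier results of these data known. The test was tested on simulated data.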

Additional observations from a re-analysis of the deposited data

How the results depend on the processing

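The increase of Acod1 kept its direction and its call in all 14 alternatives run (log2 fold change 8.80 to 9.59). The median of all genes moved by -0.44 with total-count scaling and -0.23 with upper-quartile factors, and some genes near 0 changed sign. Under total-count scaling, upper-quartile factors, quantile normalization, limma-trend on log2(count + 1) and a minimum mean count of 50, Idh3a had -0.40, -0.18, -0.18, -0.0032 and -0.049 and Mdh2 had -0.40, -0.20, -0.18, -0.057 and -0.069. Slc25a1 had -0.33, -0.12, -0.12 and -0.0011 in the first 4 of these, Mpc1 -0.21 with total-count scaling and -0.025 after quantile normalization, and Glud1 and Pdhb 0.065 and 0.012 without a filter. None of these values was called.

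With 1 library left out, values ranged from -0.49 to 1.53 for Cs, -0.23 to 0.39 for Idh3a, -0.33 to 0.028 for Fh1, -1.93 to 0.53 for Clybl, -0.77 to 0.21 for Fasn, -2.01 to -0.91 for Got1, -1.61 to -1.14 for Pdpr, -0.22 to 0.12 for Glud1, -0.26 to 0.053 for Pdhb and -0.20 to 0.38 for Slc25a1. Calls over all genes ranged from 335 to 629 higher and from 33 to 260 lower, and calls in the lists beyond the members from 0 to 1 in each direction. With all libraries, 469, 537 and 524 of all genes were higher and 489, 320 and 322 lower under total-count scaling, upper-quartile factors and quantile normalization. The calls were 741 and 227 with DESeq2, 574 and 205 with limma-trend and 835 and 205 without a filter. They were 564 and 237 with a minimum mean of 50, and 629 and 173 with the accession of the highest mean count. In the lists beyond the members, where the main fit tested 45 genes, 0 were higher under the first 3 of these settings. In these lists 2 were higher with DESeq2, without a filter, with a minimum mean of 50 and with the accession of the highest mean count. Under total-count scaling 2 were lower, and 1 under upper-quartile factors, limma-trend and the minimum mean of 50. The cause of these differences was not tested.

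The libraries share the numbers 1 and 2 across groups, but the labels tie no meaning to them and 2 pairs cannot show what the numbers stand for. Over tested genes, the difference of replicate 1 from replicate 2 in LPS and that in control had a correlation of 0.673. Libraries of the same number thus shared part of their deviation. A fit with the number as a replicate block called 1676 genes higher and 1258 lower of the 9548 tested. Of the 7 tested members it called 2 higher and 2 lower. Of the 45 tested genes of the other lists it called 4 higher and 7 lower. Cs was then called higher (0.52, adjusted p = 0.0027) and Idh2 (-0.99, 0.037) and Suclg1 (-0.44, 0.047) lower, as were Got1 (-1.51, 9.4e-06) and Pdpr (-1.36, 3.2e-04) of the other lists. These calls rest on a pairing that the labels do not state. Within the libraries numbered 1 and 2 the log2 ratios were 0.49 and 0.56 for Cs, -1.14 and -0.85 for Idh2 and -0.41 and -0.46 for Suclg1. Idh2 rests on 15 to 36 counts a library, and the reason for the low counts of Idh1 and Ogdh was not tested.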
